A study of Mus musculus with 6 samples.

Results

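The genes described here are 10 regulators of the G1 phase of the cell cycle: the D cyclins Ccnd1, Ccnd2 and Ccnd3, their kinases Cdk4 and Cdk6, the inhibitors Cdkn1a, Cdkn1b and Cdkn1c of the Cip/Kip family, and the inhibitors Cdkn2c and Cdkn2a of the INK4 family. They were found by Ensembl identifier, 10 of 10, among the 37991 gene rows of each count file, and all 10 passed the filter on low counts that left 15035 genes for testing. They were selected on the labelled pathway and, in part, on the fold change of Cdkn1c between genotypes in these libraries, which was higher in mutant cells. Its difference between genotypes is therefore a description with no test. The adjusted p-values printed for the other 9 genes come from the fit over all genes. They place each gene in that fit and are no test of the choice.

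RNA was sequenced from cells that expressed the Nestin-GFP reporter, sorted at an age of 3 days from pup dermis with the white fat beneath it. The 3 control libraries came from mice with the reporter alone. The 3 mutant libraries came from mice with the reporter, Nestin-Cre and PDGFRα+/[S]D842V, which is 1 wild-type copy of the receptor gene and 1 copy with the activating change D842V. No source used here explains "[S]". Nestin-Cre acts in cells with an active Nestin regulatory sequence. The control genotype as labelled lacks it, so the recombinase and the allele cannot be told apart. Pericytes, the name the series' title gives the cells, wrap the walls of capillaries.

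D cyclins link growth factor signals to cell division. They bind CDK4 or CDK6, and the active kinase phosphorylates the retinoblastoma protein, which then releases E2F transcription factors to start DNA synthesis. INK4 proteins bind CDK4 and CDK6 and keep D cyclins off. Cip/Kip proteins block cyclin-CDK2 complexes and can also help to assemble D cyclins with their kinases. Cdkn1c is imprinted, with expression from the maternal copy, and restrains growth in the embryo.

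Gene counts per library ran from 11912469 to 18792939. Pdgfra had 820 to 857 CPM in controls and 345 to 369 CPM in mutants, with a log2 fold change of -1.24 (edgeR adjusted p = 2.75e-06). Nes had 67.9 to 79.2 CPM in controls and 74.3 to 99.6 CPM in mutants (edgeR adjusted p = 0.28). Gene counts do not tell the mutant allele from the normal one. CPM are counts scaled to a common library total after TMM correction, which offsets differences in RNA composition. Of 11 pericyte markers all were detected and tested. Summed over each marker list, pericyte markers had 1237 to 1551 CPM in controls and 1192 to 1478 CPM in mutants. The 10 fibroblast markers had 69040 to 76940 and 56660 to 70250 CPM. Most of the fibroblast sum is Col1a1 (means of 41010 and 34360 CPM) and Col1a2 (27400 and 24450 CPM). The sums are not scaled by length and do not compare amounts of the cell types.

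A gene is said to be called where its adjusted p was under 0.05. Of the 10 genes, 2 were called higher and 2 lower in mutant cells, which is 40% of them, against 17.8% of all genes tested. Over all genes 8.63% were higher and 9.13% lower. Cdkn1c and Ccnd3 were the higher genes and Ccnd2 and Cdkn1b the lower ones. The rule used this contrast, so nothing is read from that share. The lower count was 1 when control replicate 2, control replicate 3, mutant replicate 2 or mutant replicate 3 was dropped, since Cdkn1b then lost its call. It was 3 without control replicate 1, when Cdkn1a was called too.

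**Figure D1:**
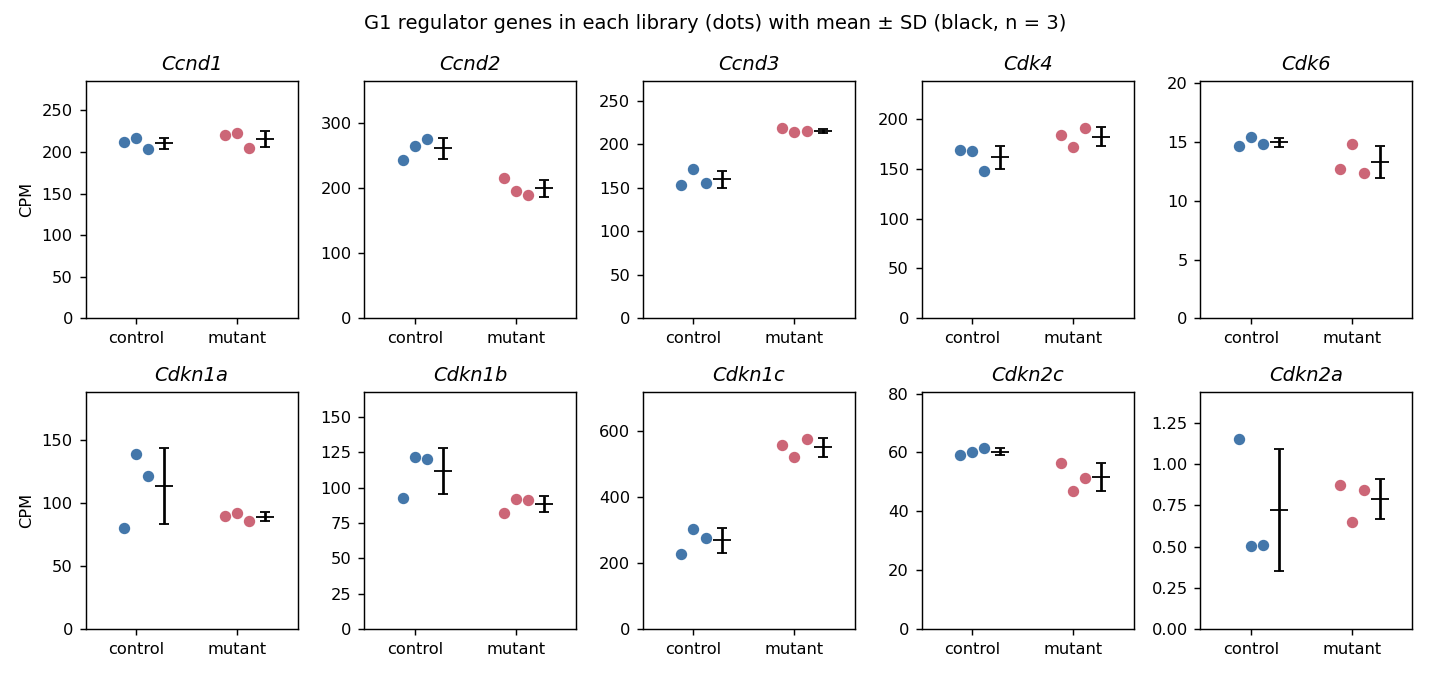
Each panel plots 1 gene, with CPM on a linear axis from 0, a dot for each library and the mean ± SD of 3 libraries in black. Cdkn1c stands at 226 to 302 CPM in controls and 520 to 576 CPM in mutants, while Ccnd1 overlaps between the groups.

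The D cyclins differed in direction. Ccnd2, a D cyclin best known from lymphoid, neural and gonadal cells, had 244, 265 and 277 CPM in control replicates 1 to 3 and 215, 196 and 189 CPM in mutant replicates 1 to 3. Every mutant library was below every control library. The means were 262 ± 16.4 and 200 ± 13.6 CPM (SD, n = 3 per group), a log2 fold change of -0.39 (95% interval -0.56 to -0.21, edgeR adjusted p = 0.00751). Ccnd3, the D cyclin often kept high in differentiating muscle and lymphoid cells, had 153, 171 and 155 CPM in controls and 218, 214 and 216 CPM in mutants. The mutant libraries lay close together and above all controls. The log2 fold change was 0.43 (95% interval 0.28 to 0.59, edgeR adjusted p = 0.00267). Both genes were called under all 13 alternatives, with log2 fold changes of -0.45 to -0.35 for Ccnd2 and 0.39 to 0.48 for Ccnd3.

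Ccnd1, the D cyclin most directly induced by growth factors through ERK signalling, had 212, 216 and 203 CPM in controls and 221, 222 and 204 CPM in mutants. The groups overlapped. The log2 fold change was 0.04 with a 95% interval of -0.12 to 0.19 (edgeR adjusted p = 0.774). That interval spans from a slight decrease to a slight increase and holds no change as large as those of Ccnd2 or Ccnd3.

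Promoter windows were matched by symbol in a RefSeq table of build GRCm38.p6 for 7 of the 10 genes, all but Ccnd1, Ccnd2 and Cdkn1c. The 250 bases before each start were searched on both strands for 6 motifs: the E-box CACGTG bound by MYC and MAX, an E2F site (TTTCCCGC, TTTCGCGC, TTTGCCGC or TTTGGCGC), the GC box GGGCGG, the FOXO site GTAAACA, the cell cycle element CHR (TTTGAA) and a pair of p53 cores, CATG followed by any 6 bases and CATG again. The motifs were chosen for factors known to act on such genes, and a match is a description of letters. Among 32851 windows of the same length, 6.02% held the E-box, 1.86% an E2F site, 32.7% a GC box, 3.17% the FOXO site, 16% the CHR and 0.49% the paired p53 cores. Ccnd3 is shown because it was called and has windows at 2 starts, which gene counts do not tell apart. Both are on the plus strand, written 5′ to 3′, with matches to any of the motifs in capitals:
Ccnd3 first start, chr17:47504801-47505050: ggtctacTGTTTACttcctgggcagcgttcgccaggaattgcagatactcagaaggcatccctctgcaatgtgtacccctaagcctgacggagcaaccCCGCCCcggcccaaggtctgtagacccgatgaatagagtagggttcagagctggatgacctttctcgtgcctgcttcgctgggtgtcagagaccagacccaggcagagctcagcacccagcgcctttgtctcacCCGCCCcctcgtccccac
Ccnd3 second start, chr17:47593217-47593466: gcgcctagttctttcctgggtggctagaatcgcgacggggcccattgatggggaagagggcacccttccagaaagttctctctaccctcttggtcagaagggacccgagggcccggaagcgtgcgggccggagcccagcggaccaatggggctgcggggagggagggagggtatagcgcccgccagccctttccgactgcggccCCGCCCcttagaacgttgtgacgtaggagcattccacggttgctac
The first window held 1 FOXO site and 2 GC boxes, and the second held 1 GC box. The GC content was 59.6% and 64.8%, above the median of 52.4% over all windows.

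Levels of different genes were compared per length, as CPM per kilobase of exon. In controls Ccnd1 stood highest among the D cyclins, at 44.7 ± 1.45, followed by Ccnd2 at 27.8 ± 1.74 and Ccnd3 at 18.2 ± 1.14 CPM per kilobase (SD, n = 3). In mutants the order below Ccnd1, which stood at 45.8 ± 2.11, was turned, with Ccnd3 at 24.6 ± 0.257 and Ccnd2 at 21.3 ± 1.44 CPM per kilobase. Ccnd3 was above Ccnd2 in each mutant library and below it in each control library, with the narrowest gap in mutant replicate 1, at 24.9 and 22.9 CPM per kilobase. Ccnd3 per Ccnd2 was 0.602 to 0.694 in control libraries and 1.09 to 1.22 in mutant libraries. The sum of the D cyclins was 88.4, 93.6 and 90.2 CPM per kilobase in controls and 94.6, 92.4 and 88.1 in mutants, so the summed level overlapped between groups while its composition differed. Of that sum Ccnd3 made up 20.1% ± 0.694 in controls and 26.9% ± 0.9 in mutants, and Ccnd2 30.6% ± 1.7 and 23.2% ± 0.887 (SD, n = 3). The order rests on the length used. With the longest transcript in place of all exons, Ccnd3 took 29.8% in controls and 38.6% in mutants, and Ccnd2 29.7% and 21.7%.

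**Figure D2:**
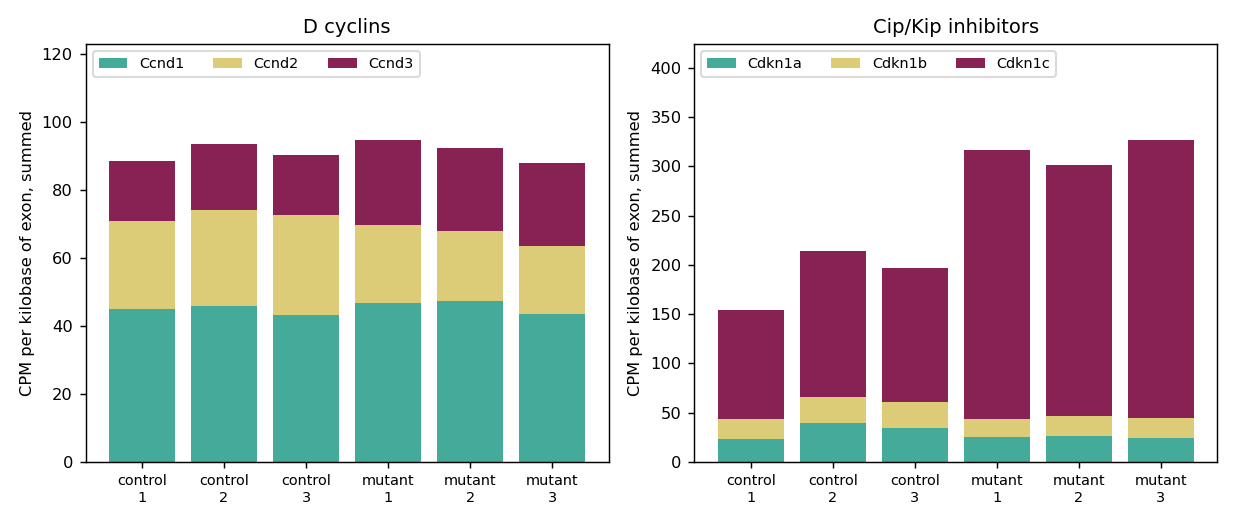
Stacked bars give CPM per kilobase of exon in each of the 6 libraries, for the 3 D cyclins on the left and the 3 Cip/Kip inhibitors on the right. The D cyclin sums lie between 88.1 and 94.6 in all libraries, and the Cip/Kip sums lie at 154 to 214 in controls and 301 to 327 in mutants. Cdkn1c, chosen in part for its rise, makes up most of the Cip/Kip sums.

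The kinases showed no call. Cdk4 had 169, 168 and 148 CPM in controls and 185, 172 and 191 CPM in mutants. All mutant libraries were above all controls, by a narrow margin between control replicate 1 and mutant replicate 2. The log2 fold change was 0.18 (95% interval 0.00 to 0.35, edgeR unadjusted p = 0.0455 and adjusted p = 0.143), and none of 13 alternatives called it. Cdk6 had 14.7, 15.4 and 14.9 CPM in controls and 12.7, 14.8 and 12.4 CPM in mutants, with overlap (log2 fold change -0.17, 95% interval -0.43 to 0.08, edgeR adjusted p = 0.324). Per length Cdk4 made up 97.9% ± 0.154 of the pair in controls and 98.3% ± 0.254 in mutants (SD, n = 3). Cdk4 is a known target of MYC, and its promoter window on the plus strand is shown for its E-boxes, in capitals with 1 GC box:
Cdk4, chr10:127063285-127063534: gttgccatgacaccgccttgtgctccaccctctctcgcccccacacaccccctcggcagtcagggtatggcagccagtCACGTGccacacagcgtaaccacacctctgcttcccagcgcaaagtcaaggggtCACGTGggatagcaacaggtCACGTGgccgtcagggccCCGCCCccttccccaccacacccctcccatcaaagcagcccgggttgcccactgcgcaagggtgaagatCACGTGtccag
The window held 4 E-boxes, and that of Cdk6 held 1. Myc, chosen here after its values were seen, had a log2 fold change of -0.13 (edgeR adjusted p = 0.429). Its partner Max fell from 48.4 ± 1.52 to 37.6 ± 1.24 CPM, a log2 fold change of -0.37 (edgeR adjusted p = 0.00751).

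Cdkn1c, which encodes p57, had the highest level per length of the 10 genes, at 132 ± 18.9 CPM per kilobase in controls and 270 ± 13.8 in mutants (SD, n = 3). It had 226, 302 and 277 CPM in control replicates 1 to 3 and 558, 520 and 576 CPM in mutant replicates 1 to 3. The lowest mutant library was well above the highest control. The mean was 268 ± 38.4 CPM in controls and 551 ± 28.2 CPM in mutants (SD, n = 3 per group), a fold of 2.05 and a log2 fold change of 1.04 with a 95% interval of 0.82 to 1.26. With 1 library left out at a time the log2 fold change was 0.92 to 1.13. By log2 fold change it ranked 280 among the 15035 genes, from the highest. Per length, over all libraries, its level stood above 99.1% of the genes tested.

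The other Cip/Kip genes were lower or overlapped. Cdkn1b, which encodes p27, an inhibitor that accumulates in resting cells, had 92.9, 122 and 120 CPM in controls and 81.8, 92 and 91.4 CPM in mutants. The highest mutant library was just under control replicate 1. The log2 fold change was -0.33 (95% interval -0.56 to -0.11, edgeR adjusted p = 0.0445). The call was lost when any library but control replicate 1 was left out (log2 fold change -0.36 to -0.27, edgeR adjusted p = 0.0702 to 0.153), with limma-voom (0.0543) and with upper-quartile scaling (0.0616). Cdkn1a, which encodes p21, an inhibitor induced by p53, had 80.4, 139 and 122 CPM in controls and 89.7, 92.3 and 85.6 CPM in mutants. Control replicate 1 was below all mutants and the other controls were above them. The log2 fold change was -0.35 (95% interval -0.81 to 0.11, edgeR adjusted p = 0.262), and without control replicate 1 it was -0.56 with an edgeR adjusted p of 0.000755. Control replicate 1 was the lowest control for Cdkn1a, Cdkn1b and Cdkn1c alike.

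**Figure D3:**
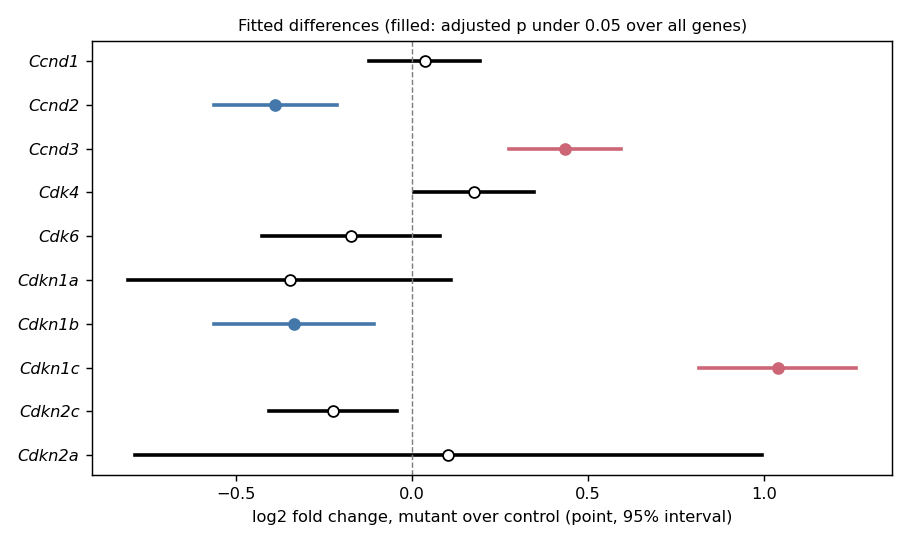
Points are log2 fold changes of mutant over control from the fit over all genes, with 95% intervals as lines, and filled points have an adjusted p under 0.05. Cdkn1c (1.04) and Ccnd3 (0.43) lie to the right of 0, Ccnd2 (-0.39) and Cdkn1b (-0.33) to the left, and the interval of Ccnd1 spans 0. Cdkn1c was chosen in part for its rise, so its filled point is a description with no test.

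Per length the composition of the family was dominated by Cdkn1c in both groups. Its share of the Cip/Kip sum was 72.1%, 69.2% and 69.2% in controls and 86.3%, 84.7% and 86.5% in mutants. Cdkn1c per Cdkn1b was 5.16 to 5.52 in control libraries and 12.6 to 15.2 in mutant libraries. The Cip/Kip sum per D cyclin sum was 2.07 ± 0.288 in controls and 3.44 ± 0.236 in mutants (SD, n = 3), with no overlap. Cdkn1c was chosen in part for its rise and holds most of the Cip/Kip sum. The differences in its share and in both ratios follow from that choice and are a description with no test. Cdkn1a and Cdkn1b had lower means in mutants. These ratios are of RNA and say nothing of protein. Cdkn1a was above Cdkn1b in each library. In controls, at 32 ± 8.45 and 24.5 ± 3.57 CPM per kilobase, the gap was within the spread. In mutants, at 25.1 ± 0.948 and 19.4 ± 1.26, the gap was beyond the spread (SD, n = 3). By longest transcript the control levels were 54.6 ± 14.4 and 24.5 ± 3.57 CPM per kilobase, a gap beyond the spread.

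The promoter windows of Cdkn1b, which was called, and of Cdkn1a, a known target of p53, are shown on the plus strand, with motif matches in capitals:
Cdkn1b, chr6:134920151-134920400: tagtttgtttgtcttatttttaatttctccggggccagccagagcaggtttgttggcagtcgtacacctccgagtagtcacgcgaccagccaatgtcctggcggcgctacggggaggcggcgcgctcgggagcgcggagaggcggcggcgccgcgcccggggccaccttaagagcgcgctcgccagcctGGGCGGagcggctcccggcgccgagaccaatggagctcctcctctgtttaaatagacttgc
Cdkn1a first start, chr17:29090729-29090978: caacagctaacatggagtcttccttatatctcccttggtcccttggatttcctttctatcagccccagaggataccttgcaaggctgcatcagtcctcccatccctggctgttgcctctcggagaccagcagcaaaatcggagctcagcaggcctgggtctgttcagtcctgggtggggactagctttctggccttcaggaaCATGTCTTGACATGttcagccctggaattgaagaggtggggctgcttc
The Cdkn1b window held 1 GC box. The Cdkn1a window held 1 pair of p53 cores and no other motif. A second Cdkn1a start, not printed, held 2 GC boxes. The printed windows differed in composition, with 28 CpG pairs in that of Cdkn1b and 2 in that of the first Cdkn1a start. The second Cdkn1a start had 19 CpG pairs and a GC content of 64.8%, against 64.4% for Cdkn1b.

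The INK4 genes showed no call. Cdkn2c, which encodes p18, had 59.2, 60.2 and 61.5 CPM in controls and 56.6, 47 and 51.2 CPM in mutants. The groups did not overlap, and the controls lay within a narrow range. The log2 fold change was -0.23 (95% interval -0.41 to -0.04, edgeR unadjusted p = 0.0191 and adjusted p = 0.0815). Without mutant replicate 1 it was -0.30 and was called (edgeR adjusted p = 0.0422). Cdkn2a, whose row holds reads of both p16 and the overlapping ARF transcript, had 18, 6 and 8 counts in controls and 13, 10 and 16 counts in mutants. That is 0.504 to 1.15 CPM in controls and 0.65 to 0.872 CPM in mutants, near the 0.16 to 0.252 CPM that a count of 0 allows (3 counts, counting error only). A difference was not detectable at this depth, and the direction turned without control replicate 2 (log2 fold change -0.08) or 3 (-0.12). Cdkn2b, another INK4 gene, had 1.07 and 0.709 CPM (edgeR adjusted p = 0.275), and no row matched Cdkn2d. Both genes were chosen for mention after their values were seen.

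Some of the 10 genes share exon bases with a gene on the opposite strand, and no source used here says whether the counting used strand. Bysl, which overlaps Ccnd3, had 31.5 to 36.4 CPM in controls and 34.7 to 45.4 in mutants, a log2 fold change of 0.18 (edgeR adjusted p = 0.278). Tspan31, which overlaps Cdk4, had a log2 fold change of -0.11 and LTO1, which overlaps Ccnd1, one of 0.09, and neither was called. Ccnd2, Cdk6, Cdkn1a and Cdkn1c overlap transcripts with no row in the count files. Reads of such partners cannot be told apart from those of the 10 genes.

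The next list holds downstream partners of the pathway. Of 26 tested genes of RB, E2F and cyclin E, 1 rose and 4 fell, a share near the 17.8% called over all genes, with a median log2 fold change of -0.13 against 0.01 over all genes. Ccne2, a cyclin E that drives entry into S phase, fell from 17.7 ± 1.77 to 10.2 ± 1.19 CPM, a log2 fold change of -0.79 (edgeR adjusted p = 0.00232). Rbl1, the RB relative p107, fell by 0.34 and Lin54, a DNA-binding subunit of the DREAM complex, by 0.41 on the log2 scale. Tfdp2, a dimer partner of E2F, rose by 0.42. Rb1 itself, chosen after its values were seen, had a log2 fold change of 0.27 (edgeR adjusted p = 0.168). Dropping any library but mutant replicate 1 left 0 rises, as Tfdp2 lost its call (largest edgeR adjusted p = 0.124). With control replicate 2 dropped 2 genes fell, and Rbl1 had an edgeR adjusted p of 0.053.

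Against 8.63% of all genes called higher and 9.13% called lower, none of 24 genes of S phase and mitosis rose and 8 fell by edgeR. Their median log2 fold change was -0.18. Rises were also 0 by DESeq2, by limma-voom and at an unadjusted p under 0.05. Cenpf, a kinetochore protein, fell by 0.62 on the log2 scale, Plk1, a mitotic kinase, by 0.49, Cdc6, a replication licensing factor, by 0.47 and Mki67, a proliferation marker, by 0.37. The 6 MCM helicase genes Mcm2 to Mcm7, picked with their values in view, lay between -0.08 and 0.12 on the log2 scale and none was called. Dropping 1 of control replicates 2 and 3 or mutant replicates 2 and 3 left 4 falls.

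Of 18 tested genes of ubiquitin ligases and other factors that govern the turnover of D cyclins and Cip/Kip proteins, none rose and 1 fell by edgeR (median 0.04). DESeq2 and limma-voom also gave 0 rises, and 2 genes were higher at an unadjusted p under 0.05. The edgeR shares over all genes were 8.63% higher and 9.13% lower. Cryab, a chaperone that works with the ligase of D cyclins, fell by 0.51 on the log2 scale (edgeR adjusted p = 0.02). Falls numbered 2 without control replicate 1. Skp2, the ligase subunit that targets p27, was chosen after its values were seen and had a log2 fold change of -0.36 (edgeR adjusted p = 0.063).

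Regulators upstream of the 10 genes moved both ways. Of 19 tested genes 3 rose and 5 fell (median log2 fold change 0.02), against 8.63% higher and 9.13% lower over all genes. Myod1, the muscle transcription factor, rose from 3.37 ± 1.09 to 7.95 ± 1.36 CPM, a log2 fold change of 1.26 (edgeR adjusted p = 0.00378). Myod1 is also counted among the skeletal muscle markers below. Ezh2, the Polycomb methyltransferase that silences Cdkn2a, fell by 0.45 and Trp53, which encodes p53, fell from 113 ± 12 to 84.3 ± 1.73 CPM, a log2 fold change of -0.42 (edgeR adjusted p = 0.00678). Rises numbered 1 without mutant replicate 2. Of 19 targets of p53 other than Cdkn1a, 2 rose and 4 fell, with a median of -0.21, beside the same shares over all genes. On the log2 scale Gdf15, a stress cytokine, fell by 1.27 and Sesn2, a stress-induced regulator of growth, by 0.85. Perp, a junction protein, rose by 0.59 and Ei24 by 0.33. Gdf15 was low, at 3.51 ± 0.222 CPM in controls and 1.43 ± 0.442 CPM in mutants. Dropping 1 of control replicates 2 and 3 or mutant replicates 2 and 3 left 1 rise, as Ei24 lost its call (largest edgeR adjusted p = 0.0835). Falls came to 2 when control replicate 2, control replicate 3 or mutant replicate 3 was dropped.

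**Figure D4:**
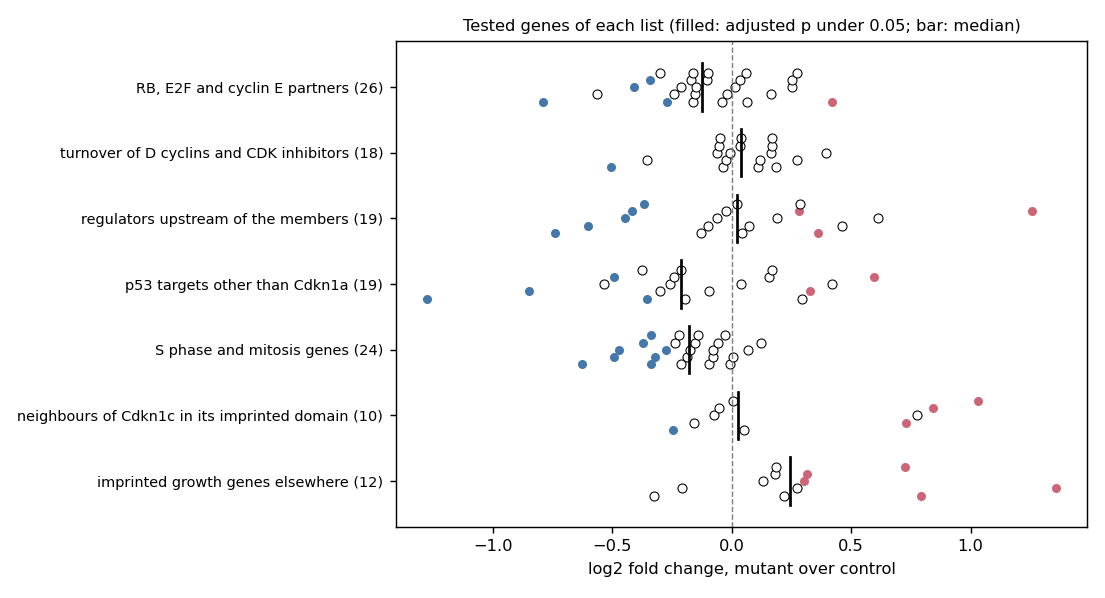
Each dot is a tested gene of the list named on the vertical axis, with the number tested in brackets, placed by its log2 fold change of mutant over control. Filled dots have an adjusted p under 0.05 and the bar is the list's median, which is -0.18 for S phase and mitosis genes and 0.25 for imprinted growth genes elsewhere.

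Cdkn1c lies in an imprinted domain next to that of Igf2 and H19, and genes of both domains were read as a further list. Of 16 genes 10 were tested, and 3 rose and 1 fell (median log2 fold change 0.03). Over all genes 8.63% were called higher and 9.13% lower. Igf2, a fetal growth factor expressed from the paternal copy, rose from 1980 ± 90.9 to 3547 ± 304 CPM, a log2 fold change of 0.84 (edgeR adjusted p = 0.000274). H19, a maternally expressed noncoding RNA, had 2137, 2335 and 2187 CPM in controls and 3726, 3535 and 3792 CPM in mutants (log2 fold change 0.73). Trpm5, a cation channel gene, rose by 1.03 on the log2 scale, at 5.62 ± 1.55 CPM in controls. Cars, a tRNA synthetase gene, fell by 0.25, a call lost when any library was left out (largest edgeR adjusted p = 0.183). Other genes near Cdkn1c, chosen after their values were seen, were not called, among them Cd81 (log2 fold change -0.05), Nap1l4 (0.05) and Osbpl5 (0.01). No row matched Kcnq1ot1, the noncoding RNA of the domain.

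Against 8.63% of all genes called higher and 9.13% called lower, 5 of 12 tested imprinted growth genes elsewhere rose and none fell by edgeR. Their median log2 fold change was 0.25. Falls were also 0 by DESeq2 and by limma-voom, and 1 gene was lower at an unadjusted p under 0.05. Dlk1, a transmembrane inhibitor of fat cell differentiation, rose from 1206 ± 214 to 3091 ± 231 CPM (log2 fold change 1.36). Plagl1, a zinc finger factor that can activate Cdkn1c, rose by 0.73, Mest by 0.79 and Igf2r by 0.31 on the log2 scale. Meg3 and Peg3, picked with their values in view, overlapped between the groups, with an edgeR adjusted p of 0.417 for Meg3 and 0.252 for Peg3. Dropping 1 of control replicates 2 and 3 or mutant replicates 1 and 3 left 3 rises, and Igf2r lost its call in each of these (largest edgeR adjusted p = 0.148).

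**Figure D5:**
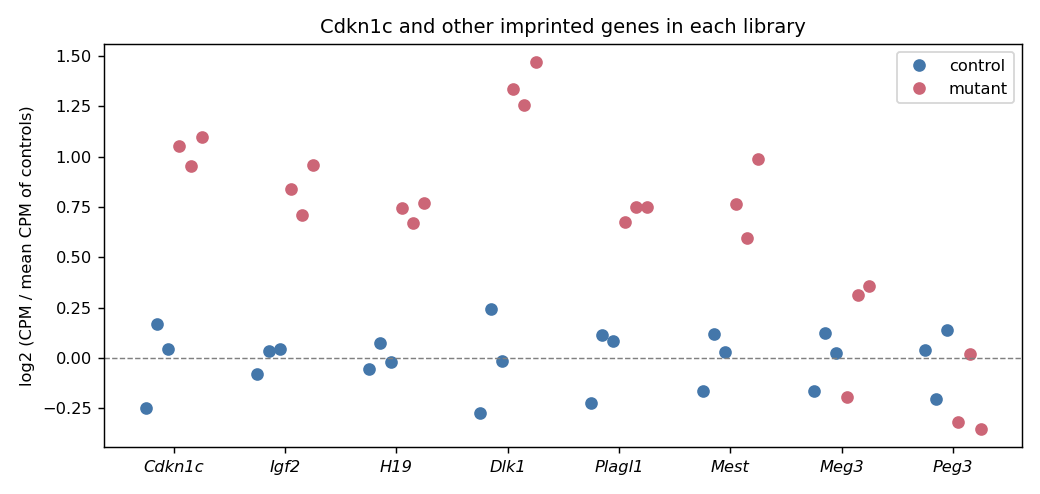
Dots give log2 of the CPM in each library over the mean CPM of the 3 controls, for Cdkn1c and 7 other imprinted genes. All mutant libraries lie above all controls for Cdkn1c, Igf2, H19, Dlk1, Plagl1 and Mest, and the groups overlap for Meg3 and Peg3.

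The genes whose log2 CPM followed Cdkn1c most closely over the 6 libraries were Dlk1 (Pearson r = 0.998), Tmeff2 (0.997), Dyrk1b (0.996), Hist1h1c (0.996) and Klf11 (0.995), out of 10887 candidates. These values carry no p. The libraries fall into 2 genotypes, and a gene that differs between them correlates with Cdkn1c through that difference. Hist1h1c, a linker histone gene, rose from 46.4 to 124 CPM and Klf11, a zinc finger factor gene, from 79.1 to 103 CPM.

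Markers of other cell types moved with these differences, and their part in them was not tested. Fewer cells of a type and less RNA per cell cannot be told apart in such samples. The edgeR counts below stand beside 8.63% of all genes called higher and 9.13% called lower. Among 15 skeletal muscle and satellite cell markers 10 were called higher and none lower by edgeR, DESeq2 giving 11 and 0, limma-voom 10 and 0 and an unadjusted p under 0.05 14 and 0, with a summed level of 120 to 136 CPM in controls and 250 to 364 CPM in mutants. Of 12 endothelial markers 6 rose, at 169 to 208 and 284 to 400 CPM, and of 8 keratinocyte markers 4 rose, at 486 to 771 and 909 to 1139 CPM. Of 9 smooth muscle markers 3 fell, at 1023 to 1420 and 615 to 877 CPM. Of 8 tested adipocyte markers 1 rose, at 649 to 859 and 858 to 1564 CPM. Adipoq and Cfd, chosen after their values were seen and not called, were uneven among mutants. Mutant replicates 1 to 3 had 16.7, 61.8 and 9.29 CPM of Adipoq and 10.9, 110.9 and 6.28 CPM of Cfd. None of 9 macrophage markers was called by edgeR, DESeq2 or limma-voom, and 1 was higher at an unadjusted p under 0.05. Of 6 tested mast cell markers 3 rose and 2 fell, and of 10 Schwann cell and melanocyte markers 1 rose and 2 fell. Apart from 1 red blood cell gene, no gene of the marker lists stood at 0 in every library. Of 11 pericyte markers 2 rose and none fell by edgeR (median log2 fold change -0.05), DESeq2 giving 3 and 0, limma-voom 2 and 0 and an unadjusted p under 0.05 3 and 1. Of 10 fibroblast markers 1 rose and 2 fell (median -0.21). The falls include Pdgfra (log2 fold change -1.24), the gene that carries the D842V change in mutants. Examples were Cdh15 of satellite cells (log2 fold change 1.14), Lyve1 of the endothelial list (1.49), Krt15 of basal keratinocytes (0.87), Smtn of smooth muscle (-0.57) and Tpsb2 of mast cells (1.24). Prox1 and Flt4, from the same list as Lyve1, were chosen after their values were seen and overlapped between the groups. Their log2 fold changes were 0.31 (edgeR adjusted p = 0.251) and 0.39 (edgeR adjusted p = 0.254). Kcnj8 of pericytes had 1.47, where Rgs5, chosen after its values were seen, had -0.72 with an edgeR adjusted p of 0.181. Fabp4 of fat cells had 0.84, a call lost when control replicate 1, control replicate 2 or mutant replicate 3 was dropped (largest edgeR adjusted p = 0.0704). Mrc1 of macrophages had 0.16 (edgeR adjusted p = 0.389). Of the red blood cell markers only Hba-a1 passed the filter, at 0.86 and 2.18 CPM (edgeR adjusted p = 0.0825).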

How the data were processed

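For each of 6 libraries the authors deposited a table of gene counts, whole and not normalized. The submitters' processing notes name build mm9 and, with no role or order, HTSeq 0.5.3, TopHat2 2.0.4, cutadapt 1.1, DESeq2 and FastQC. The 5 rows that name no gene, 36.9% to 41.7% of listed reads, were left out. Symbols matched 32919 of 37991 rows. Exon lengths came from GENCODE M21, a later build than mm9, so levels per kilobase are approximate.

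Counts were filtered with filterByExpr (minimum count 10, total 15), scaled by TMM and fitted in R 4.3.3 by the robust quasi-likelihood test of edgeR 4.0.16 (genotype only), with Benjamini-Hochberg adjustment over 15035 genes and a threshold of 0.05. The fit was tested on simulated data, with far fewer changed genes than were called here, and its share of false calls there was above the nominal level, so calls near the threshold are less secure than their adjusted p states. Alternatives were DESeq2 1.42.0, limma-voom (limma 3.58.1), other scalings and filters, a replicate block and leaving out each library. With 3 libraries a group the smallest two-sided p of an exact permutation test is 0.1, and none was run. Each library was counted as a separate sample, as labelled. Libraries of a group differed by more than sampling noise (chi-square per degree of freedom 4.73 to 13.3). Control replicate 1 gave 9.53 with control replicate 2 and 13.3 with control replicate 3, while control replicates 2 and 3 gave 4.73. Pairs of mutants gave 8.16 to 11.1. Separate preparations of the same cells could also differ so, and the values do not show separate mice.

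The genes and lists were chosen with earlier results of these data known. Named were the 10 genes, Pdgfra, Nes, up to 4 called genes per pathway list, or the 2 most abundant where none was called, 1 gene per marker list, and the 5 genes most correlated with Cdkn1c (log2 CPM, prior count 2, mean of at least 5 CPM). The gene of 1 marker list is not reported here. Others are said to be chosen after their values were seen.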

Additional observations from a re-analysis of the deposited data

How the results depend on the processing

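Ccnd2 and Ccnd3 kept their direction and call under all 13 alternatives. With 1 library left out, genes called higher numbered 658 to 1199 against 1298 and genes called lower 753 to 1500 against 1372, and of the 10 genes 1 to 3 were lower. With upper-quartile scaling and with limma-voom 1 of the 10 genes was lower, since Cdkn1b (-0.31 and -0.33) was not called. With 1 library left out, log2 fold changes ran from -0.46 to -0.27 for Cdkn1b, from -0.56 to -0.18 for Cdkn1a, from -0.30 to -0.16 for Cdkn2c and from -0.12 to 0.62 for Cdkn2a, which reversed without control replicate 2 (-0.08) or 3 (-0.12). It failed the stricter filter and has no value there.

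In the same runs RB, E2F and cyclin E genes had 0 to 1 rises and 2 to 3 falls, turnover genes 1 to 2 falls, upstream regulators 1 to 2 rises, p53 targets 1 to 2 rises and 2 to 6 falls, S phase and mitosis genes 4 to 11 falls, genes of the Cdkn1c and Igf2 domains 0 falls, and imprinted genes elsewhere 3 to 6 rises and 0 to 1 falls. Falls in those domains were also 0 with upper-quartile scaling, DESeq2, limma-voom and the replicate block. With no filter, RB, E2F and cyclin E genes had 2 rises, turnover genes 2 falls and imprinted genes elsewhere 1 fall. The causes were not tested.

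With the replicate block 1328 genes were higher and 1439 lower, RB, E2F and cyclin E genes had 2 rises and turnover genes 2 falls. Deviations of same-numbered libraries correlated at 0.117, -0.029 and -0.087, and not every library correlated best with its own number. The highest value was 0.158, for control replicate 3 with mutant replicate 2. With 3 libraries a group, each taken as a deviation from its group mean, such values cannot show whether libraries were paired.

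With the longest transcript as length, shares in controls and mutants were 40.5% and 39.7% for Ccnd1, 29.8% and 38.6% for Ccnd3, 98.4% and 98.7% for Cdk4, 1.63% and 1.29% for Cdk6, 24.5% and 12.2% for Cdkn1a, 11.2% and 5.52% for Cdkn1b, and 64.3% and 82.3% for Cdkn1c. In mutants they were 21.7% for Ccnd2, 96% for Cdkn2c and 4.04% for Cdkn2a. Depth limits Cdkn2a most, at 6 to 18 counts.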
